A study of Mus musculus with 9 samples.

Results

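Glutathione synthesis and peroxide defence were followed through 10 genes that encode the enzymes which make, recycle and use glutathione or remove superoxide: Gclc, Gclm, Gss, Gsr, Gpx1, Gpx4, Gstm1, Gsta4, Sod1 and Sod2. The members were all probe sets that the array's annotation assigns to these genes alone, 25 of the 45037 probe sets tested, and no probe set lists a member beside another gene. They were measured in brain hemispheres, cerebellum removed, of untreated adult male mice, 11 ± 1 weeks old, from 3 strains. C57BL/6ByJ and BALB/cJ are inbred strains, and B6By.C.132.54 is a congenic line by its name, carrying donor segments of BALB/c in the C57BL/6By genome. Each strain had 3 Affymetrix Mouse430_2 arrays, and each array held RNA of 10 pooled hemispheres (30 mice per strain, 90 in all), so errors here reflect pools, not single mice. No strain received a treatment.

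Glutathione is a tripeptide thiol that serves brain cells as their main soluble reductant. Glutamate-cysteine ligase (Gclc and Gclm) and glutathione synthetase (Gss) build it, glutathione peroxidases spend it to reduce peroxides, and glutathione reductase (Gsr) regenerates it with NADPH. Superoxide dismutases act upstream by turning superoxide into hydrogen peroxide, and glutathione transferases couple glutathione to electrophiles such as products of lipid peroxidation. Many of these genes are textbook targets of the transcription factor NRF2, which binds the antioxidant response element.

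Since NRF2 is the textbook regulator of several members, the 250 bases before each annotated start were searched for the core of that element, TGACNNNGC, on both strands. RefSeq's promoter table (GRCm38.p6) matched 7 of the 10 genes with 11 windows, and Gclc, Gsr and Gsta4 are the others. A match stood in the windows of Gclm and Sod1, 2 of the 11 windows, while 10.2% of the 32851 windows of the same length in the table held one. Both matches read on the strand opposite to the gene, beginning 134 bases before the start of Gclm (stretch chr3:122245363-122245491, + strand) and 56 bases before that of Sod1 (stretch chr16:90220646-90220761, + strand). These stretches are shown because they hold the matches, which the capitals mark; neither gene was called between strains.
Gclm: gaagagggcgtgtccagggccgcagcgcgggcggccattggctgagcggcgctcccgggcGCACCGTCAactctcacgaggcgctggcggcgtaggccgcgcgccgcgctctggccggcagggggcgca
Sod1: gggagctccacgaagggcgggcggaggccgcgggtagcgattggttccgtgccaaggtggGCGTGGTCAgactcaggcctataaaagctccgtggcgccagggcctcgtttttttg
The GC box letters GGGCGG were found in windows of Gclm, Gpx4, Sod1 and Sod2 (32.7% of all windows held them), and TATAAA in windows of Sod1 and Gstm1 (12.4% of all windows). All letters were searched on both strands, and no match overlapped one of another motif. A match is a description of sequence only.

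Values are log2 signal intensities; the median over all probe sets was 3.97, and 2 of the 25 member probe sets lay below it, where signal is close to background. Member levels are compared between strains within a probe set, and levels of different genes are not ranked. Array medians lay between 15.49 and 15.99 intensity units, and B6By.C.132.54 replicate 3 stood apart with the narrowest spread (interquartile range 2.73 on the log2 scale, against up to 2.98) and a mean correlation of 0.988 with the other arrays of the strain. Of the marker genes, 0 of 12 for neurons and 4 of 7 for cerebellum were dimmer than that overall median. The cerebellum markers above it were Cbln1, Zic1 and Calb2, the last at 8.22, 8.15 and 8.22 in C57BL/6ByJ, BALB/cJ and B6By.C.132.54. A median splits all probe sets evenly, so these counts do not check that the cerebellum was removed. A pair of strains was called different where the adjusted p was under 0.05 (limma, Benjamini-Hochberg over 45037 probe sets). The labels number 3 biological replicates per strain, and arrays of the same number deviated together, so the fit with replicate number as a block is given where it matters for a call.

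Gsr, which encodes glutathione reductase (chromosome 8), was the member with a strain difference. Its brighter probe set, 1421816_at, read 5.85, 5.69 and 6.02 in C57BL/6ByJ, 6.18, 6.36 and 6.66 in BALB/cJ, and 5.68, 5.86 and 5.73 in B6By.C.132.54 (replicates 1 to 3). All 3 BALB/cJ arrays lay above all 6 arrays of the other strains, which overlapped each other. B6By.C.132.54 was 1.56-fold lower than BALB/cJ (-0.64 ± 0.129 on the log2 scale, SE, limma adjusted p = 0.0378). The differences by replicate number were -0.50, -0.50 and -0.92. BALB/cJ was 1.46-fold above C57BL/6ByJ (0.54 ± 0.129, SE), with differences of 0.34, 0.66 and 0.63 by replicate number. This difference did not pass without the replicate block (limma adjusted p = 0.087) and passed with it (0.0313). B6By.C.132.54 and C57BL/6ByJ were not distinguished (95% interval of the difference -0.38 to 0.19).

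The Gsr call between B6By.C.132.54 and BALB/cJ stood close to the threshold. Leaving out C57BL/6ByJ replicate 1 (limma adjusted p = 0.069) or 2 (0.0511), BALB/cJ replicate 2 (0.133) or 3 (0.136), or B6By.C.132.54 replicate 1 (0.137), 2 (0.0691) or 3 (0.121) put the adjusted p above 0.05, as did a fit of these strains alone (0.0925). The size of the difference ran from -0.75 to -0.51 when any 1 array was left out.

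The second Gsr probe set, 1421817_at, gave another picture. It read 5.20, 5.15 and 5.15 in C57BL/6ByJ, 5.23, 5.23 and 5.15 in BALB/cJ, and 5.001, 5.05 and 4.80 in B6By.C.132.54. Here the B6By.C.132.54 arrays were the low ones, below all 6 others, and the parental strains overlapped. Neither difference of B6By.C.132.54 passed (-0.25 ± 0.0885 against BALB/cJ, limma adjusted p = 0.413, and -0.22 ± 0.0885 against C57BL/6ByJ, adjusted p = 0.915). Without B6By.C.132.54 replicate 3 these were -0.18 and -0.14. The log2 gap between the probe sets within an array was 0.51 wider in BALB/cJ than in C57BL/6ByJ (exact permutation test, two-sided, p = 0.1, n = 3 each, the smallest p that 3 against 3 arrays allow; 0.15 adjusted over the 3 strain pairs). The gap was 0.39 narrower in B6By.C.132.54 than in BALB/cJ (exact permutation test, two-sided, p = 0.1, 0.15 adjusted). The array files do not say which part of the Gsr transcript either probe set covers. The Gsr call rests on 1 of 2 probe sets, though both read lower in B6By.C.132.54 than in BALB/cJ.

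**Figure D1:**
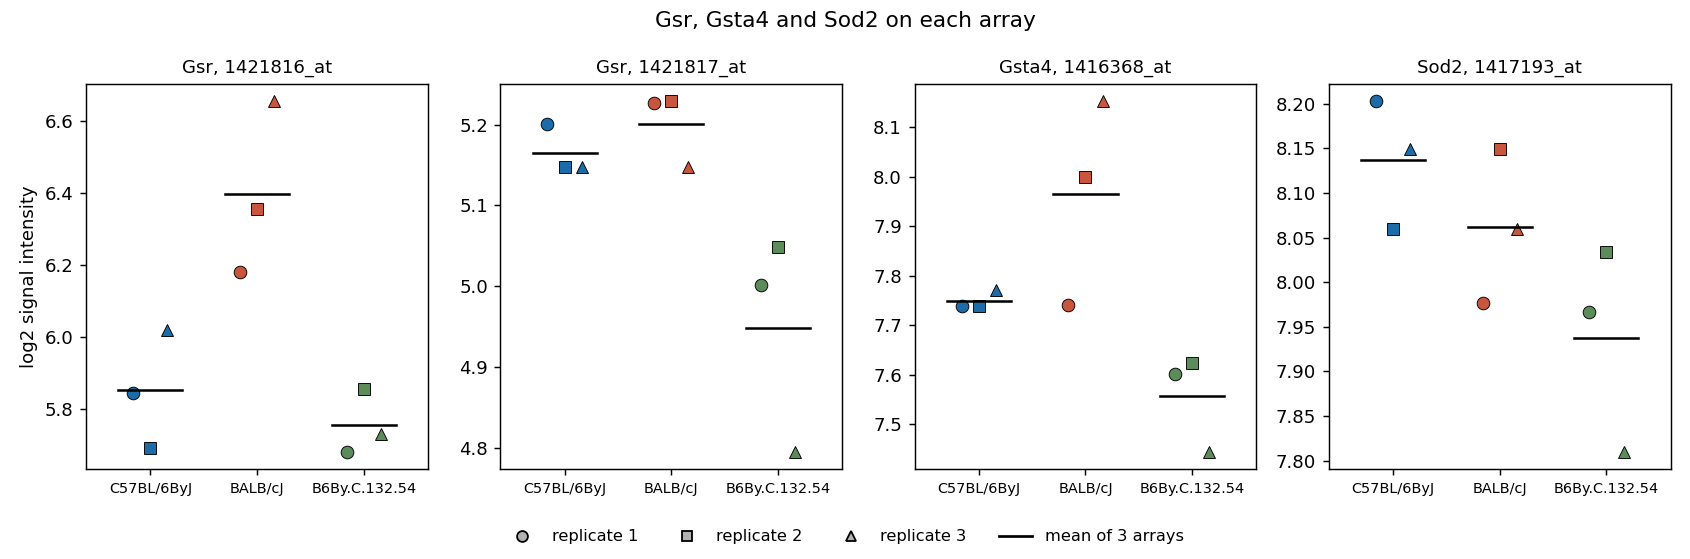
Log2 signal intensity (vertical axes, each with its own scale) of 4 probe sets on each of the 9 arrays, by strain; marker shape gives the replicate number and bars are means of 3 arrays. BALB/cJ stood above both other strains in Gsr 1421816_at, whereas in Gsr 1421817_at and Gsta4 the B6By.C.132.54 arrays lay below the others.

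No strain difference was called for the glutathione-making enzymes. Gclc, the catalytic subunit of the ligase that sets the pace of synthesis (chromosome 9), read 7.42 ± 0.131 in C57BL/6ByJ, 7.52 ± 0.132 in BALB/cJ and 7.45 ± 0.198 in B6By.C.132.54 (SD, n = 3 each) by probe set 1424296_at. Its other probe set, 1455959_s_at, read 6.50 ± 0.0352, 6.52 ± 0.107 and 6.50 ± 0.169. The strain means of Gclc thus lay within the spread of single arrays on both probe sets. Gclm, the modifier subunit that raises the ligase's affinity for substrate (chromosome 3), read 6.84 ± 0.186, 6.99 ± 0.163 and 7.02 ± 0.217 by 1418627_at, in the same order of strains, and 4.63 ± 0.149, 4.58 ± 0.595 and 4.34 ± 0.318 by the dimmer 1439050_at. Gss, which adds glycine in the last step (chromosome 2), read 5.004 ± 0.119, 5.04 ± 0.137 and 5.14 ± 0.212 by 1448273_at and 4.59 ± 0.11, 4.63 ± 0.139 and 4.61 ± 0.045 by 1441931_x_at. For the brighter probe sets of Gclc, Gclm and Gss, the 95% intervals of the BALB/cJ over C57BL/6ByJ ratio ran from 0.891 to 1.29, 0.905 to 1.37 and 0.854 to 1.24.

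No strain difference was called for the glutathione peroxidases either. Gpx1, the cytosolic selenoenzyme that reduces hydrogen peroxide (chromosome 9), read 8.85, 8.72 and 8.59 in C57BL/6ByJ, 8.60, 8.67 and 8.69 in BALB/cJ, and 8.79, 8.61 and 8.57 in B6By.C.132.54, with full overlap. Gpx4, which reduces phospholipid hydroperoxides and guards cells against ferroptosis (chromosome 10), read 10.28 ± 0.117, 10.29 ± 0.108 and 10.28 ± 0.0495 in C57BL/6ByJ, BALB/cJ and B6By.C.132.54 by 1451695_a_at. Its 95% interval for BALB/cJ against C57BL/6ByJ, -0.20 to 0.21, allows a change of 1.16-fold at most, among the narrowest of the members. The other Gpx4 probe set, 1456193_x_at, read 9.46 ± 0.116, 9.53 ± 0.202 and 9.56 ± 0.0394. No peroxidase probe set had an adjusted p under 0.923 in any strain pair (limma).

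Among the transferases, Gsta4 (chromosome 9), whose enzyme conjugates the lipid peroxidation product hydroxynonenal, came nearest to a call after Gsr. Its single probe set read 7.74, 7.74 and 7.77 in C57BL/6ByJ, 7.74, 8.0 and 8.15 in BALB/cJ, and 7.601, 7.62 and 7.44 in B6By.C.132.54. The B6By.C.132.54 arrays lay below all others, and BALB/cJ overlapped C57BL/6ByJ through its replicate 1. The difference of B6By.C.132.54 from BALB/cJ was -0.41 ± 0.108 (SE) and missed the threshold (limma adjusted p = 0.161; with replicate number as a block, 0.119). It passed without BALB/cJ replicate 1 (-0.52, adjusted p = 0.0432) and measured -0.35 without B6By.C.132.54 replicate 3 (adjusted p = 0.417). The difference of BALB/cJ from C57BL/6ByJ was 0.21 ± 0.108 (adjusted p = 0.736), and it measured 0.33 without BALB/cJ replicate 1 and 0.12 without BALB/cJ replicate 3.

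Gstm1, a mu class transferase (chromosome 3), has 4 probe sets, and none separated the strains. Of these 1448330_at, with the highest signal, read 9.16 ± 0.152 in C57BL/6ByJ, 9.25 ± 0.144 in BALB/cJ and 9.08 ± 0.195 in B6By.C.132.54, and 1416416_x_at read 8.94 ± 0.133, 8.93 ± 0.1 and 8.95 ± 0.162. The dimmer 1425627_x_at read 6.33 ± 0.062, 6.32 ± 0.268 and 6.27 ± 0.183, and 1425626_at read 5.40 ± 0.0523, 5.32 ± 0.166 and 5.26 ± 0.223. Gstm1 has close paralogues in the mu class, and the suffix of 2 of these probe sets (x) marks probes that may bind other transcripts, so their values may include those genes. The same suffix stands on Gss 1441931_x_at, Gpx4 1456193_x_at and Sod1 1447761_x_at.

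Of the superoxide dismutases, Sod1 (copper and zinc enzyme of the cytosol, chromosome 16) has 5 probe sets. Its brightest, 1451124_at, read 8.38 ± 0.132, 8.55 ± 0.101 and 8.41 ± 0.223 in C57BL/6ByJ, BALB/cJ and B6By.C.132.54, and 1459976_s_at read 7.65 ± 0.352, 7.61 ± 0.268 and 7.49 ± 0.633. The other 3 had strain means between 2.65 and 4.51. Among these, 1440222_at read 3.86, 3.84 and 4.96 in C57BL/6ByJ, 4.10, 4.32 and 4.36 in BALB/cJ and 3.67, 4.08 and 3.63 in B6By.C.132.54. There the C57BL/6ByJ mean rests on replicate 3, and the B6By.C.132.54 arrays lay below those of BALB/cJ without passing the test (limma adjusted p = 0.774).

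Sod2, the manganese enzyme of mitochondria (chromosome 17), had 4 probe sets and no call. By 1417193_at it read 8.20, 8.06 and 8.15 in C57BL/6ByJ, 7.98, 8.15 and 8.06 in BALB/cJ and 7.97, 8.03 and 7.81 in B6By.C.132.54. The B6By.C.132.54 arrays were below all those of C57BL/6ByJ, the closest pair being 8.03 and 8.06, with a 95% interval of the difference from -0.40 to 0.00136 and a limma adjusted p of 0.915. By 1448610_a_at the 3 BALB/cJ arrays (7.61, 7.76 and 7.58) lay above those of C57BL/6ByJ (7.54, 7.53 and 7.53), and B6By.C.132.54 spanned both (7.45, 7.73 and 7.16). The probe set 1454976_at averaged 5.88, 5.94 and 5.98 in the 3 strains. The dim 1417194_at, below the median of all probe sets, was 0.33 ± 0.137 lower in mean in B6By.C.132.54 than in BALB/cJ (limma adjusted p = 0.606), with differences of -0.17 without BALB/cJ replicate 3 and -0.24 without B6By.C.132.54 replicate 3.

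Counted over the 25 probe sets, B6By.C.132.54 against BALB/cJ gave 1 call, lower (Gsr), where 0.564% of all probe sets were called lower and 1.28% either way; with the replicate block Gsr was again the call, beside 0.85% lower and 1.85% either way. At an unadjusted p under 0.05 there were 4 members, beside 7.5% of all probe sets. BALB/cJ against C57BL/6ByJ gave 0 calls by limma, where 1.43% of all probe sets were called and 0.508% were called higher. At an unadjusted p under 0.05 there was 1 member, beside 7.58% of all. With the replicate block the same pair gave 1 call, higher (Gsr), where 2.12% of all were called and 0.775% higher. B6By.C.132.54 against C57BL/6ByJ gave 0 calls with and without the block, where 0% of all probe sets were called, and 1 member had an unadjusted p under 0.05, beside 3.89% of all. These pairs share arrays, and their counts are not independent. A single call is 4% of the 25 members, so these counts do not set the members apart from the background.

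The strains did not overlap in 4 member probe sets (16%) for B6By.C.132.54 against BALB/cJ, all lower in B6By.C.132.54, where 5.72% of all probe sets did so in that direction and 9.51% in either. The 4 were Gsr 1421816_at, Gsr 1421817_at, Gsta4 1416368_at and Sod1 1440222_at. For BALB/cJ against C57BL/6ByJ there were 2 of 25 (8%), both higher in BALB/cJ (6.65% of all probe sets that way, 12.6% either way). For B6By.C.132.54 against C57BL/6ByJ there were 3 of 25 (12%), all lower in B6By.C.132.54 (3.54% of all that way, 6.62% either way). The median difference over the members was 0.04, -0.06 and -0.06 on the log2 scale for BALB/cJ against C57BL/6ByJ, B6By.C.132.54 against C57BL/6ByJ and B6By.C.132.54 against BALB/cJ, beside 0.02, -0.01 and -0.02 over all probe sets. All 25 intervals of the first pair stayed within 2-fold (1.77-fold at most), as did those of the second (1.99-fold at most), and 24 of 25 did in the third, where Sod1 1440222_at reached 2.04-fold. Missing the threshold does not show equal levels, and these intervals give the size of change that remains possible.

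**Figure D2:**
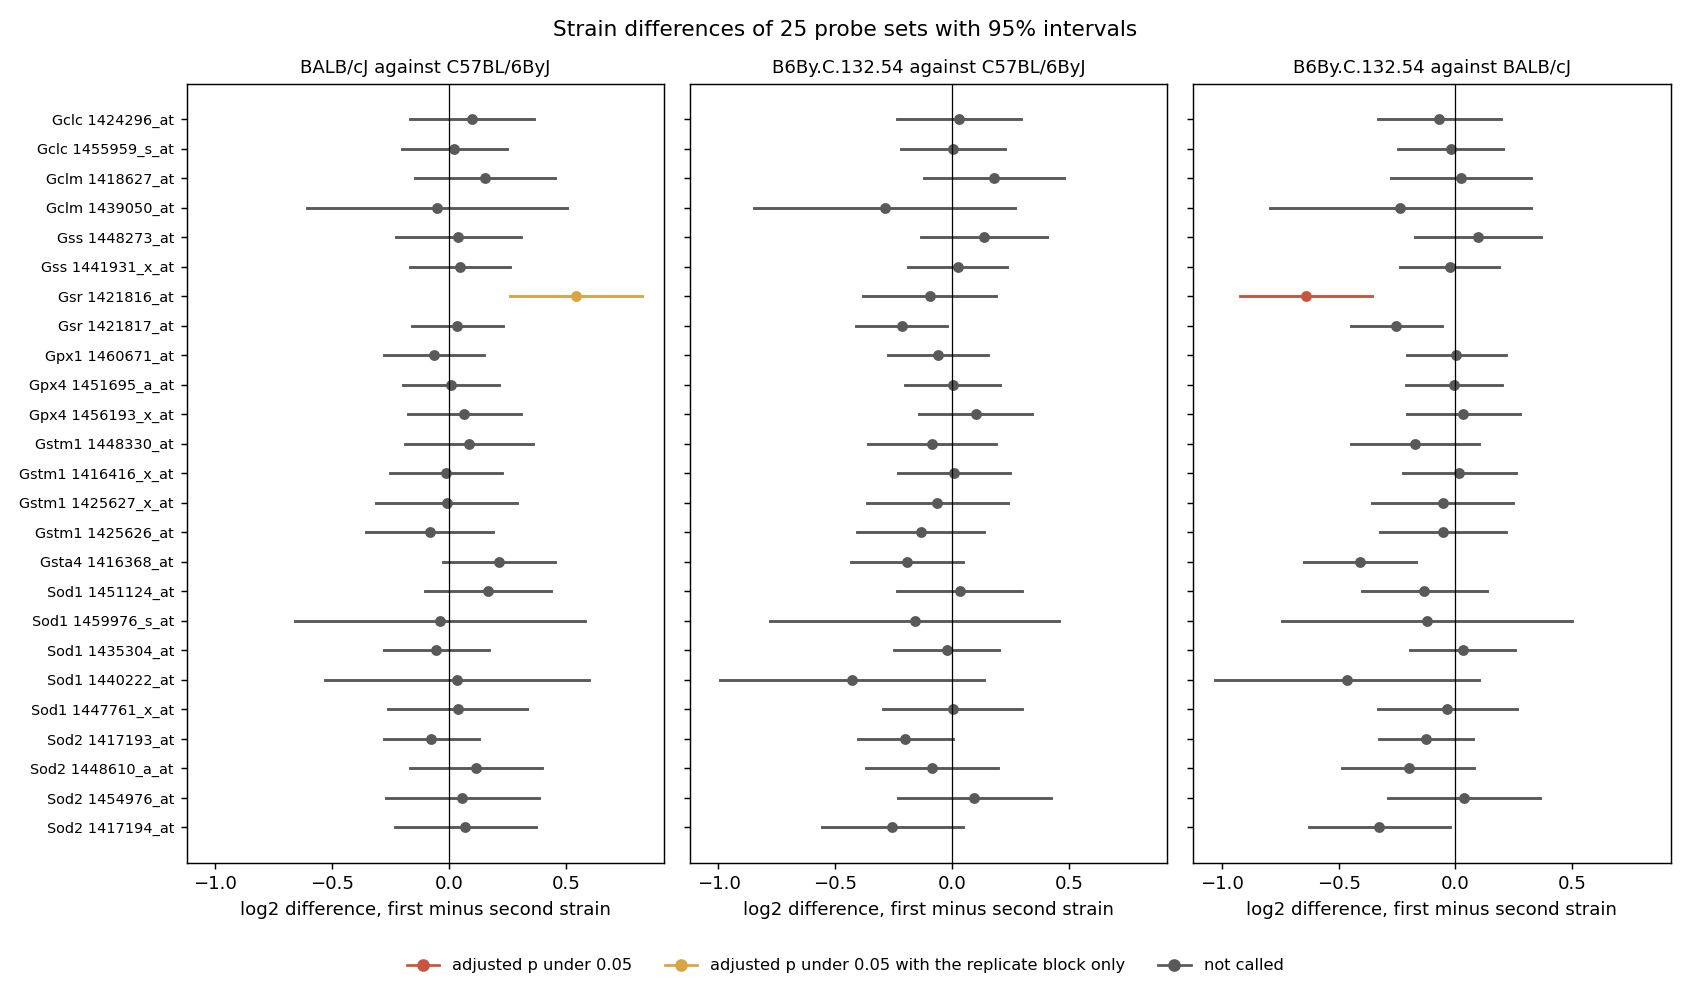
Log2 differences (horizontal axes, first minus second strain) of the 25 member probe sets in the 3 strain pairs, with 95% intervals from limma. Gsr 1421816_at was called between B6By.C.132.54 and BALB/cJ (-0.64) and, with the replicate block only, between BALB/cJ and C57BL/6ByJ (0.54).

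B6By.C.132.54 replicate 3 bears on the low B6By.C.132.54 values. It was the lowest of all 9 arrays in 13 of the 25 member probe sets (52%), against 23.5% of all probe sets. Among these 13 were Gsr 1421817_at, Gsta4, 3 of the 4 Sod2 probe sets, and Sod1 1451124_at, 1459976_s_at, 1435304_at and 1440222_at. Gsr 1421816_at was not among them. Values without it are given above for Gsr 1421817_at, Gsta4 and Sod2 1417194_at, and the difference of Sod2 1417193_at between B6By.C.132.54 and C57BL/6ByJ went from -0.20 to -0.14 without it.

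Most members varied more with replicate number than with strain. Of the sum of squares over 9 arrays, replicate number held a median of 36.3% and strain 13% over the members, beside 30.3% and 23.1% over all probe sets. The replicate share exceeded the strain share in 18 of the 25 (72%), and in 56.6% of all probe sets. Gsr 1421816_at (79.5% strain, 9.65% replicate number), Gsr 1421817_at (72.4% and 16.4%) and Gsta4 (70.1% and 5.08%) stood at the strain end. At the other end were Gstm1 1416416_x_at (0.408% and 88.1%) and Sod1 1459976_s_at (3.41% and 82.9%). These shares describe 9 arrays and carry no test. The work was done in 3 batches per the study's design text, and the labels do not tie replicate numbers to them.

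**Figure D3:**
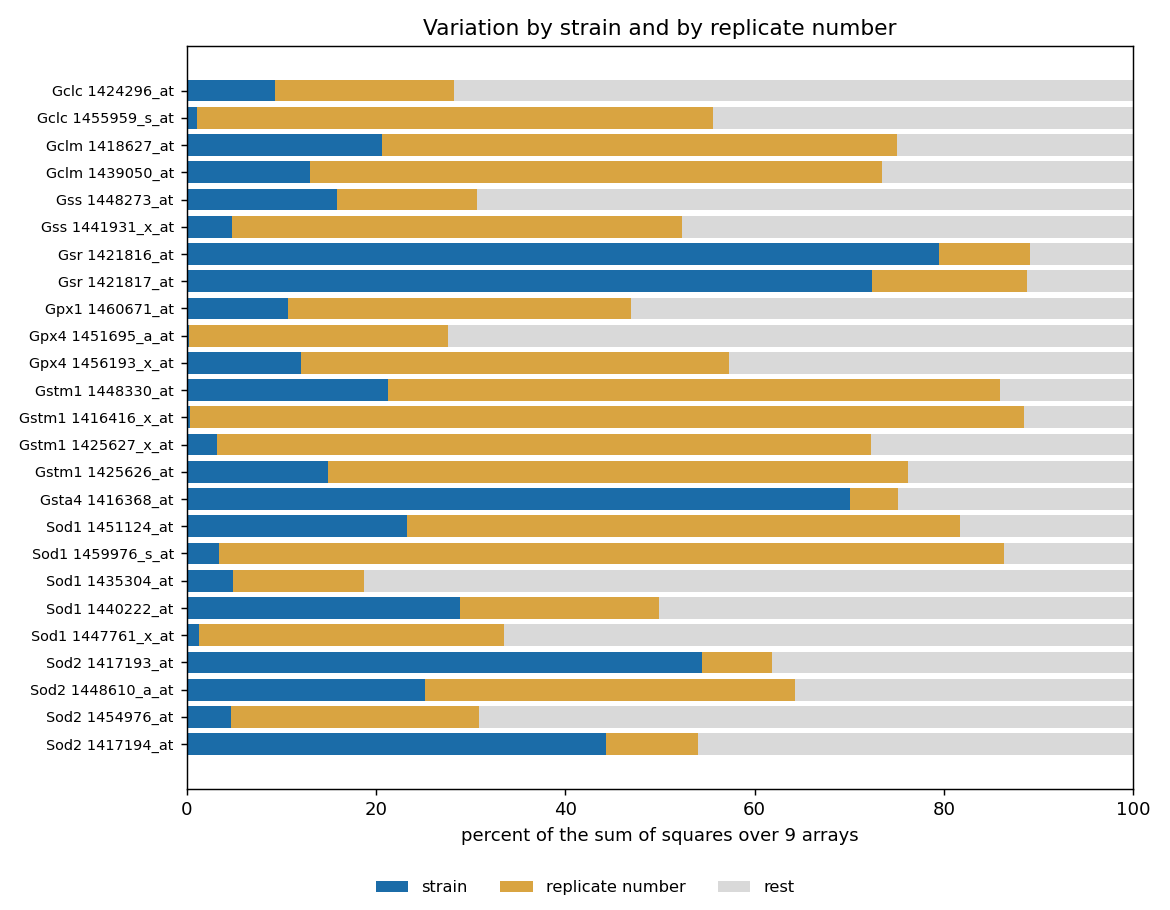
Percent of the sum of squares over 9 arrays (horizontal axis) held by strain, by replicate number and by the rest, for each member probe set. Strain held over 70% in Gsr and Gsta4, and replicate number over 80% in Gstm1 1416416_x_at and Sod1 1459976_s_at.

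Probe sets annotated to the same gene could move with replicate number in opposite directions. Gclm 1439050_at was highest on replicate 1 in all 3 strains, at 4.73, 5.27 and 4.71 in C57BL/6ByJ, BALB/cJ and B6By.C.132.54, while the other 6 arrays read 4.12 to 4.71. Gclm 1418627_at was lowest on replicate 1 in C57BL/6ByJ (6.63) and B6By.C.132.54 (6.77), and its means by replicate number were 6.78, 7.09 and 6.98. The Gclm probe sets thus ordered the pools differently.

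In Gstm1, 1416416_x_at was lowest on replicate 1 in all 3 strains (8.79, 8.84 and 8.81, against 8.90 to 9.13 on the other arrays), whereas 1425626_at was highest there in all 3 (5.46, 5.43 and 5.50, against 5.05 to 5.40). In Sod1, 1459976_s_at read 8.03, 7.89 and 8.05 on the replicate 1 arrays, 7.59, 7.59 and 7.62 on the replicate 2 arrays and 7.34, 7.36 and 6.80 on the replicate 3 arrays. The strains were thus nearly superposed on replicates 1 and 2, and the numbers did not overlap. Sod1 1451124_at did not follow this order, with means of 8.44, 8.59 and 8.31 by replicate number. In all, 3 member probe sets were highest on replicate 1 in every strain (12%, against 7.53% of all probe sets) and 1 was lowest there (4%, against 10.8%).

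**Figure D4:**
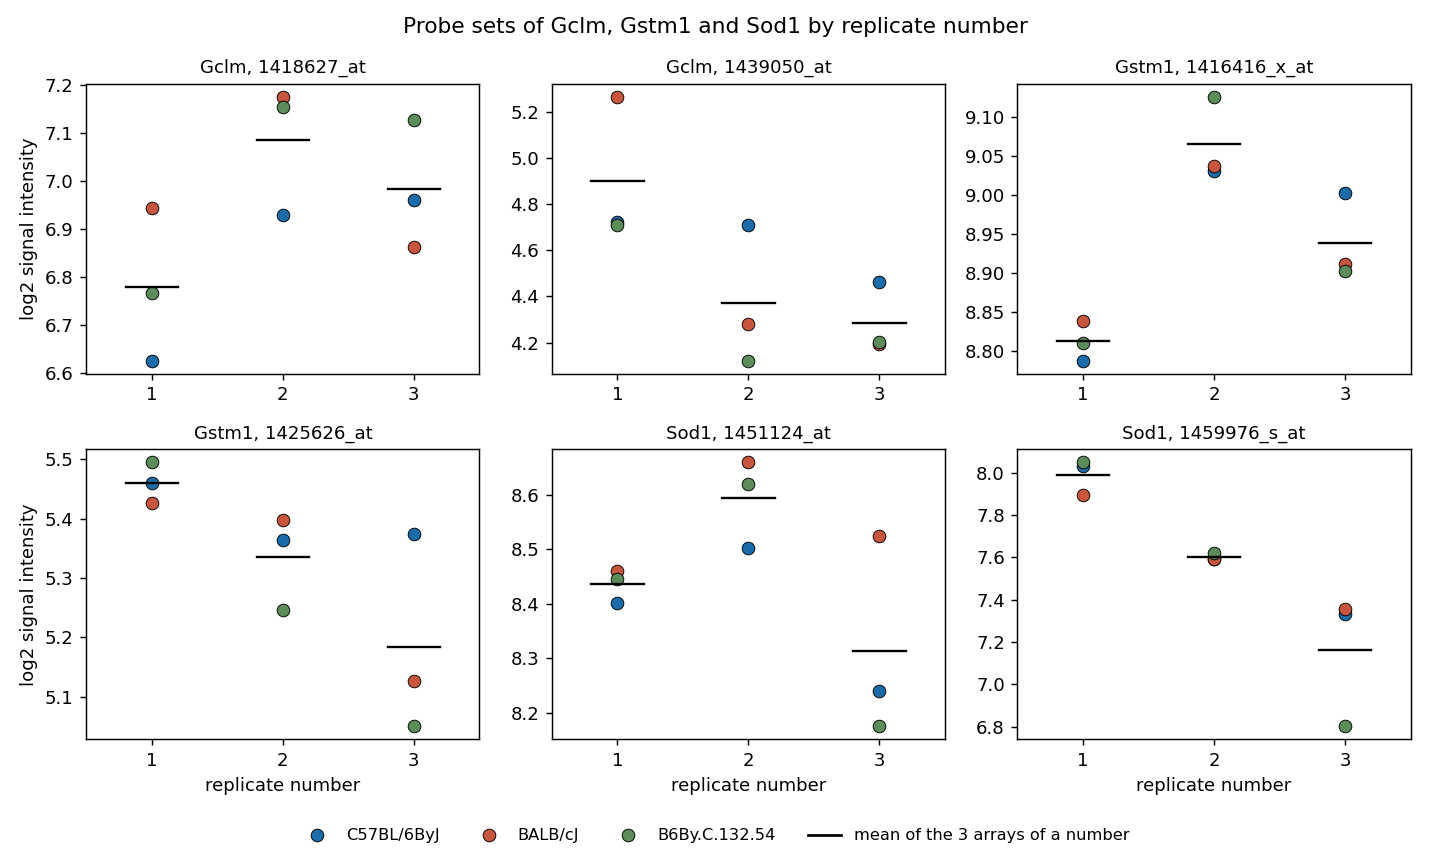
Log2 signal intensity (vertical axes, each with its own scale) by replicate number for 2 probe sets each of Gclm, Gstm1 and Sod1; colours give the strain and bars the mean of the 3 arrays of a number. Gclm 1439050_at, Gstm1 1425626_at and Sod1 1459976_s_at were high on replicate 1, and Gstm1 1416416_x_at was low there.

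The wider pathway was read from 106 other genes in 8 lists, 98 of them measured by a probe set that names no other gene, each by its brightest. Between BALB/cJ and C57BL/6ByJ, 3 rose and 1 fell in BALB/cJ (4.08% called, against 1.32% of 18193 genes, 0.451% higher and 0.874% lower). With the replicate block 3 rose and 2 fell (1.99% of all genes were called). Between B6By.C.132.54 and BALB/cJ 1 was higher and 2 were lower in B6By.C.132.54 (3.06%, against 1.1% of all genes, 0.588% higher and 0.517% lower), with and without the block (1.75% of all genes with it). B6By.C.132.54 against C57BL/6ByJ gave 0 by limma, as it did for all genes. The lists were chosen with earlier results of these data known, so these shares cannot show an excess of strain differences in the pathway. Median differences over the 98 genes were -0.01, -0.04 and -0.04 on the log2 scale for BALB/cJ against C57BL/6ByJ, B6By.C.132.54 against C57BL/6ByJ and B6By.C.132.54 against BALB/cJ.

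Me3, a mitochondrial malic enzyme that makes NADPH, the cofactor of glutathione reductase, was the called gene among 12 measured NADPH suppliers. It read 5.86, 6.30 and 6.20 in C57BL/6ByJ, 6.92, 7.11 and 7.19 in BALB/cJ and 5.79, 6.25 and 6.12 in B6By.C.132.54. BALB/cJ stood clear of both other strains, 1.93-fold above C57BL/6ByJ (0.95 ± 0.144, SE; limma adjusted p = 0.00579) and 2.02-fold above B6By.C.132.54 (adjusted p = 0.00399). Me3 (chromosome 7) has a single probe set, and both calls held without any 1 array. Nnt, which makes NADPH in the inner mitochondrial membrane, averaged 6.30, 6.29 and 6.30 and was not called. G6pdx, listed as an NADPH supplier too, was not analysed here.

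Among genes that supply selenium to the peroxidases, Sephs2 and Scly were called, in opposite directions and each by a single probe set. Of 9 measured, Sephs2, which makes the selenium donor for selenocysteine (chromosome 7), fell 1.5-fold in BALB/cJ from 8.34 ± 0.0672 in C57BL/6ByJ to 7.76 ± 0.0725 (SD, n = 3; limma adjusted p = 0.00501), and B6By.C.132.54 read 8.32 ± 0.0964 (adjusted p = 0.00669 against BALB/cJ). Neither of the other Sephs2 probe sets was called. Scly, which frees selenium from selenocysteine (chromosome 1), rose 1.43-fold in BALB/cJ, from 4.69 ± 0.0454 to 5.20 ± 0.0612 (adjusted p = 0.0117), while B6By.C.132.54 read 4.84 ± 0.113 and was not called against either. The other Scly probe set was not called, and the call against C57BL/6ByJ ended on leaving out C57BL/6ByJ replicate 1 (limma adjusted p = 0.0637) or 2 (0.0588), or BALB/cJ replicate 1 (0.0599) or 3 (0.0513). The selenoenzyme transcripts Gpx1 and Gpx4 were themselves not called.

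Glo1, which clears methylglyoxal with glutathione as cofactor (chromosome 17), read 8.52 ± 0.0522 in C57BL/6ByJ, 9.42 ± 0.111 in BALB/cJ and 8.40 ± 0.226 in B6By.C.132.54, with BALB/cJ called higher in both pairs (limma adjusted p = 0.00178 and 0.000776). Of its other 3 probe sets, 2 were called the same way in both pairs. The dimmest differed by 0.80 ± 0.237 between BALB/cJ and C57BL/6ByJ (limma adjusted p = 0.244) and by -1.09 ± 0.237 between B6By.C.132.54 and BALB/cJ (0.059), and passed in both pairs with the replicate block (0.00877 and 0.00114). Hagh, the next enzyme of the glyoxalase route, was not called. Prdx3, a peroxiredoxin of mitochondria (chromosome 19), read 8.24, 8.17 and 8.23 in C57BL/6ByJ, 7.88, 7.77 and 7.88 in BALB/cJ and 8.27, 8.16 and 8.10 in B6By.C.132.54. All BALB/cJ arrays were the low ones, at -0.37 ± 0.0823 (SE) from C57BL/6ByJ, which passed with the replicate block (limma adjusted p = 0.0425) and not without it (0.0591). It was the 1 member of 21 measured thioredoxin, peroxiredoxin and catalase genes to pass in either fit.

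**Figure D5:**
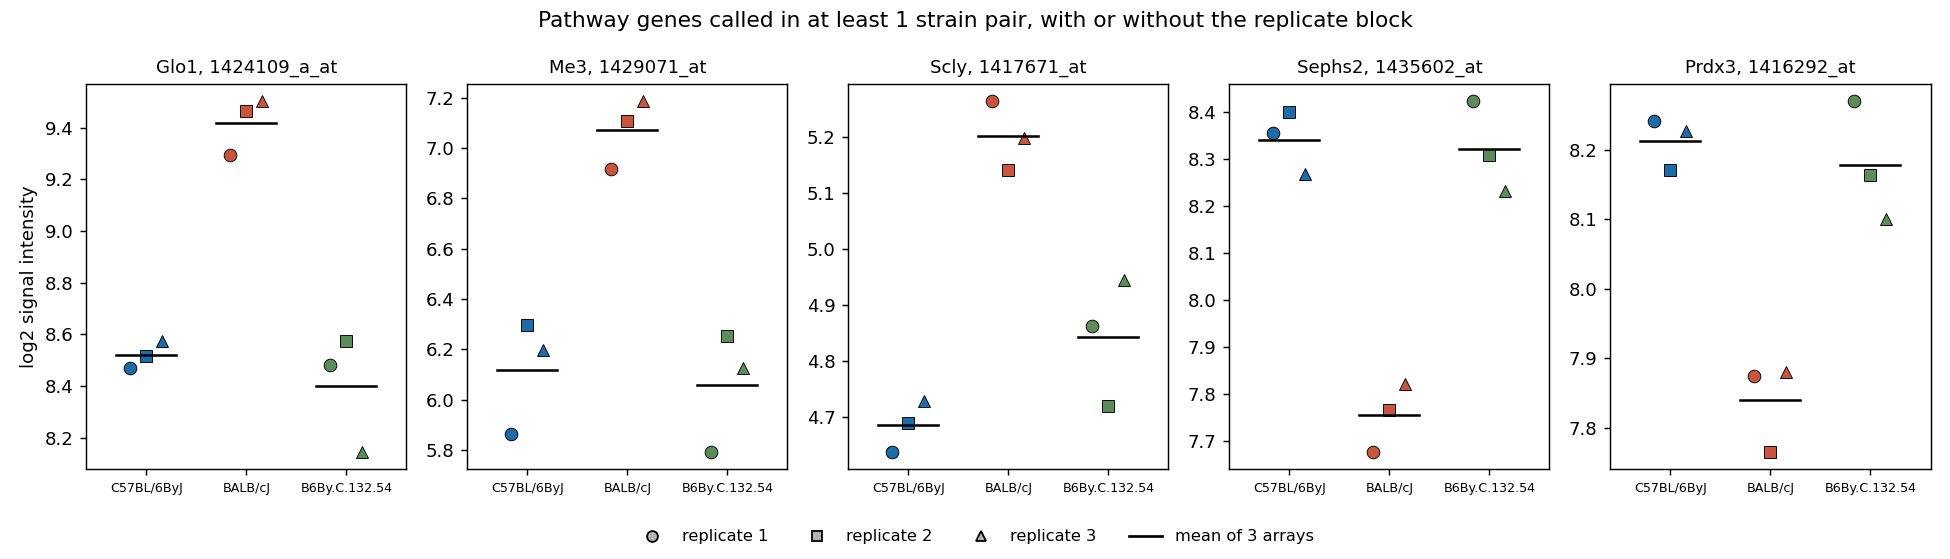
Log2 signal intensity (vertical axes, each with its own scale) of the 5 pathway genes called in at least 1 strain pair, with or without the replicate block, on each of the 9 arrays; marker shape gives the replicate number and bars are means of 3 arrays. By the probe sets shown, BALB/cJ was high in Glo1, Me3 and Scly and low in Sephs2 and Prdx3. The other Sephs2 probe sets were not low in BALB/cJ.

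No gene was called in the lists of cysteine supply and glutathione breakdown (13 measured), other glutathione peroxidases (6), other glutathione transferases (21), or NRF2 regulation and its further targets (14), with or without the block. Nfe2l2, the NRF2 gene, read 5.28 ± 0.157, 5.21 ± 0.0955 and 5.31 ± 0.333 in C57BL/6ByJ, BALB/cJ and B6By.C.132.54, and Keap1, its inhibitor, read 6.91 ± 0.0592, 6.90 ± 0.0443 and 6.76 ± 0.0527. The NRF2 targets Hmox1 (4.001, 4.06 and 4.08) and Nqo1 (3.84, 3.77 and 3.68, below the median of all probe sets) were near background in all strains. Slc7a11, the cystine importer, was below that median too (3.43, 3.24 and 3.26). Gpx3, the secreted peroxidase, read 6.58 ± 0.212, 6.84 ± 0.187 and 6.602 ± 0.139, Txnrd1, a thioredoxin reductase, read 6.75 ± 0.13, 6.68 ± 0.0226 and 6.43 ± 0.336, and catalase (Cat) read 5.03 ± 0.549, 4.73 ± 0.111 and 4.54 ± 0.797. Prdx1, Prdx5 and Prdx6 were not analysed here.

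The genes whose values over the 9 arrays lay nearest to those of Gsr 1421816_at, each centred on its own mean, were Eif2ak1, Trappc12 and Bri3bp, out of 19407 probe sets of other genes at or above the median level. Their root mean square differences from Gsr were 0.0832, 0.107 and 0.11 on the log2 scale, against a median of 0.328 over those probe sets. Eif2ak1, a haem-regulated kinase of the translation factor eIF2α (chromosome 5, probe set 1436006_at), averaged 4.89 in C57BL/6ByJ, 5.47 in BALB/cJ and 4.85 in B6By.C.132.54. Trappc12, a subunit of a vesicle tethering complex (chromosome 12), averaged 5.61, 6.05 and 5.32, and Bri3bp (chromosome 5) averaged 7.97, 8.67 and 7.89.

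Cell type markers, each read by its brightest probe set, moved with strain for single genes. In bulk tissue, fewer cells of a type and less RNA per cell cannot be told apart. Of 11 astrocyte markers, Gfap rose in BALB/cJ (8.06 ± 0.0567 against 7.14 ± 0.286, SD; limma adjusted p = 0.00393) and no other was called. The mean level of the astrocyte list ran from 8.35 to 8.44 in C57BL/6ByJ, 8.37 to 8.46 in BALB/cJ and 8.15 to 8.40 in B6By.C.132.54 (log2 intensity per array), and its summed intensity from 7377 to 7721, 7156 to 7233 and 6593 to 7607. Against B6By.C.132.54, Gfap was again the astrocyte marker called, lower in B6By.C.132.54 than in BALB/cJ (-0.71 ± 0.131, SE; limma adjusted p = 0.0238). Of 11 microglia markers 2 (C1qb and C1qc) and of 12 neuron markers 1 (Slc17a7) were lower in BALB/cJ than in either other strain. No other C1qb probe set was called this way. Of 11 endothelial and pericyte markers, Cldn5 was lower in BALB/cJ than in C57BL/6ByJ (-0.54 ± 0.114, adjusted p = 0.0466). The pericyte marker Rgs5 was lower in B6By.C.132.54 than in BALB/cJ (-0.56 ± 0.111, limma adjusted p = 0.0361). Gfap and Rgs5 shared the pair and direction of the Gsr call, whereas C1qb, C1qc and Slc17a7 were called the opposite way there (0.88, 0.83 and 1.24). In that pair the median difference was 0.02 over the endothelial and pericyte list and -0.09 over the astrocyte list. The Rgs5 call rests on the brightest of 4 Rgs5 probe sets, and no other was called that way. Rgs5 levels were 8.27 ± 0.116 in C57BL/6ByJ, 8.52 ± 0.113 in BALB/cJ and 7.96 ± 0.18 in B6By.C.132.54 (SD, n = 3). The summed intensity of the endothelial and pericyte list ran from 1281 to 1290, 1175 to 1273 and 1067 to 1258 in C57BL/6ByJ, BALB/cJ and B6By.C.132.54. Summed intensities of the microglia list ran from 1567 to 1645, 1413 to 1570 and 1556 to 1755 in the same order of strains. Their part in the Gsr and pathway differences was not tested.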

How the data were processed

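Brain RNA of 9 pools was hybridised to Affymetrix Mouse430_2 arrays, from 7 µg of total RNA per the labels' protocols. What was deposited is a linear-scale intensity for each probe set on each array. GCOS and RMA appear in the submitters' processing notes, with no role or version; background treatment and scaling are not given in the sources used here. Intensities were taken to log2 without a pseudocount or further normalization, and 64 control probe sets were left out of 45101. Repeated values are frequent: 61.5% of probe sets, and 10 of the 25 members, have 1 value on at least 2 arrays. The number of arrays limits the precision.

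The annotation gave 1 gene for 34945 probe sets, several for 932 and none for 9160; 34741 were renamed by Entrez identifier through RefSeq's GRCm38.p6 table. All 9 arrays entered 1 limma fit (version 3.58.1, R 4.3.3, lmFit and eBayes on strain means, 6 residual degrees of freedom), two-sided and adjusted by Benjamini-Hochberg. The fit was also run on simulated arrays with independent noise. These lack the shared deviations of same-numbered arrays, so they do not bear on calls that depend on the replicate block. Every member probe set was described with no filter on level. Named pathway genes were those called in any pair and 12 fixed examples (Prdx6 not measured).

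Same-numbered arrays of different strains had correlated deviations from their strain means (0.519 to 0.542, 0.147 to 0.18 and 0.205 to 0.266 for numbers 1, 2 and 3), so a replicate block was fitted as an alternative. Members and lists were chosen with earlier results of these data known. Labels call the replicates biological; p-values measure the spread between pools.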

Additional observations from a re-analysis of the deposited data

How the results depend on the processing

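The member count between B6By.C.132.54 and BALB/cJ (1, Gsr) ran from 0 to 2 when 1 array was left out and was 0 when these strains were fitted alone; it stayed at 1 with quantile normalization, median centring, dim probe sets removed, trend and robust variance, or the replicate block. Between BALB/cJ and C57BL/6ByJ it was 0 in these settings except the replicate block, which gave 1. The count over all probe sets for that pair was 410 to 706 without 1 array (410 without C57BL/6ByJ replicate 2), against 644. The replicate block changed the call of Gsr 1421816_at (0.54, adjusted p = 0.0313) and of Prdx3 (-0.37, 0.0425) between these strains, and of the dimmest Glo1 probe set in both pairs with BALB/cJ; it changed no other call of a member or of another probe set of the named pathway genes. Prdx3 also passed with median centring (-0.40, 0.0484) and without B6By.C.132.54 replicate 3 (0.0442). The dim Sod2 1417194_at difference between BALB/cJ and C57BL/6ByJ, 0.07, ran from -0.0858 (without BALB/cJ replicate 3) to 0.16 without 1 array. Of the other 63 member differences (21 probe sets), none was called in any of the 942 values from these alternatives. Among these differences 43 changed sign in at least 1 alternative, to a size of at most 0.22 on the log2 scale. The direction of those 43 is therefore not settled. Low signal limits Sod1 1447761_x_at and Sod2 1417194_at. Sod1 1440222_at was dim too, with a mean of 4.09 over 9 arrays, close to the median of 3.97 over all probe sets.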
